A study of Mus musculus with 12 samples.

Results

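Whether the effect of dexamethasone (DEX), a synthetic glucocorticoid, on the transcripts of mouse chondrocytes was the same early and late was examined in 12 expression arrays. Chondrocytes were isolated from 3 kinds of long bone (tibiae, femurs, humeri) of CD1 mouse embryos at embryonic day 15.5, a time when these bones are cartilage templates, and were grown as primary monolayers. All cultures, controls included, received fresh medium with ascorbic acid and beta-glycerophosphate. The 4 groups of 3 arrays each were vehicle 6 hrs and vehicle 24 hrs, which received DMSO, and DEX 6 hrs and DEX 24 hrs, which received 100 nM DEX. The sex and number of the embryos behind each isolation were not given in the sources used here. A digest of whole bones can hold cells other than chondrocytes. Each DEX array was set against the vehicle array with the same replicate number (1, 2 or 4) and the same time, which gave 3 pairs at 6 hrs and 3 pairs at 24 hrs from 12 of 12 arrays in the series. The pairs at 6 hrs are called early and those at 24 hrs late, and 3 values in a row are those of replicates 1, 2 and 4. The DEX effect of a pair is log2 of the DEX intensity over the vehicle intensity, and the late minus early effect is the mean of the 24 hrs pairs minus the mean of the 6 hrs pairs. Of 45101 probe sets, 20897 were examined, those for which 1 or more groups averaged 50 or above, and they measured 11053 named genes.

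Glucocorticoids bind the glucocorticoid receptor (Nr3c1), a transcription factor that activates genes by binding DNA and restrains inflammatory genes by interfering with factors such as AP-1 and NF-kB. Some targets respond directly and quickly, among them the leucine zipper gene Tsc22d3, the metallothioneins and the clock gene Per1. Others follow later, when the first targets act in turn or when the cells change state. In the growth plate, chondrocytes proliferate, become hypertrophic and are replaced by bone, and prolonged glucocorticoid exposure is known to restrain bone growth.

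The cells carried the markers of cartilage. Col2a1, the main cartilage collagen, averaged 5345 (vehicle) and 6218 (DEX) early and 6751 and 5942 late. Acan, the cartilage proteoglycan core, averaged 3654 and 4102 early and 3365 and 3416 late. No tested probe set represented the 9 erythroid genes with a symbol, and 5 of 15 endothelial genes, 12 of 22 macrophage genes and 16 of 24 skeletal muscle genes were tested. For tendon and perichondrial fibroblast genes it was 20 of the 20 with a symbol. Both arrays of each pair were hybridized on the same day, but no day held both times, so that time and hybridization day cannot be told apart in any level. The 4 arrays of replicates 1 and 2 at 6 hrs came from 1 of the 4 days and lay on 1 side of the first principal component, which carried 67.4% of the variance, with the other arrays on the other side. These 4 arrays also had a log2 ratio of the 3′ to the 5′ Gapdh probe set, a sign of RNA quality, of 0.486 to 0.743, against -0.331 to -0.222 on the other 8. Between DEX and vehicle of a pair this ratio differed by -0.217 to 0.167. Where pair values are printed, that of replicate 4 at 6 hrs therefore stands beside those of replicates 1 and 2. The scan records of both replicate 4 arrays at 6 hrs number them 3 and name another fluidics protocol than those of the other 10 arrays. The number of the labels was used. In bulk RNA, fewer cells of a type and less RNA per cell cannot be told apart. The arrays allow 3 values against 3, and a two-sided exact permutation test of 1 probe set cannot go below p = 0.1 in this design.

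The late and early values were apart for many probe sets, in both directions and in nearly equal numbers. All 24 hrs pairs lay above all 6 hrs pairs for 2040 probe sets (9.76%), and all lay below for 2034 (9.73%). Over genes, each represented by its tested probe set with the highest mean intensity, the shares were 10.0% above and 9.64% below, and these are the background for the counts below. The median late minus early effect over all probe sets was -0.014 and its median size was 0.23 on the log2 scale. A difference larger than 1 was found for 570 probe sets. The values just inside and just outside the limits were close, with the dimmest probe set that was kept at a highest group mean of 50 and the brightest that was left out at 49.9956, and 1017 of the 4074 non-overlapping probe sets had less than 0.05 between their late and early pairs.

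The non-overlapping probe sets were sorted into classes by the sign and size of the pair values, with no test. A rise that grows was found for 820 probe sets, in which every 24 hrs pair was above 0 and the late mean was the larger in size. A fall that grows was found for 923. A rise that fades, with every 6 hrs pair above 0 and the late mean the smaller, was found for 357, and a fall that fades for 519. The effect turned from fall to rise in 592 probe sets and from rise to fall in 635, which means that all 3 early pairs and all 3 late pairs were on opposite sides of 0. The remaining 228 were in no class. The names of the growing classes describe the late pairs and do not require an early effect: the median early effect was -0.037 in rises that grow and 0.063 in falls that grow, and the early mean had the opposite sign in 505 and 631 of them. The median late minus early effect was 0.46 in rises that grow, -0.48 in falls that grow, -0.46 in rises that fade and 0.41 in falls that fade. With limma fitted to the 6 pair differences, the late minus early effect passed an adjusted p of 0.05 for 1 probe set (0.00479% of those tested). Unadjusted, 2674 probe sets passed 0.05 with limma. The second lowest adjusted p was 0.153. The count was 9 with a mean of at least 200 required in 1 group and 13 with intensities under 50 set to 50, and it was 0 with no filter, with hybridization day as a block, without the pairs of replicates 1 and 2 at 6 hrs and with no replicate block. The classes therefore order the values and are not calls.

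**Figure D1:**
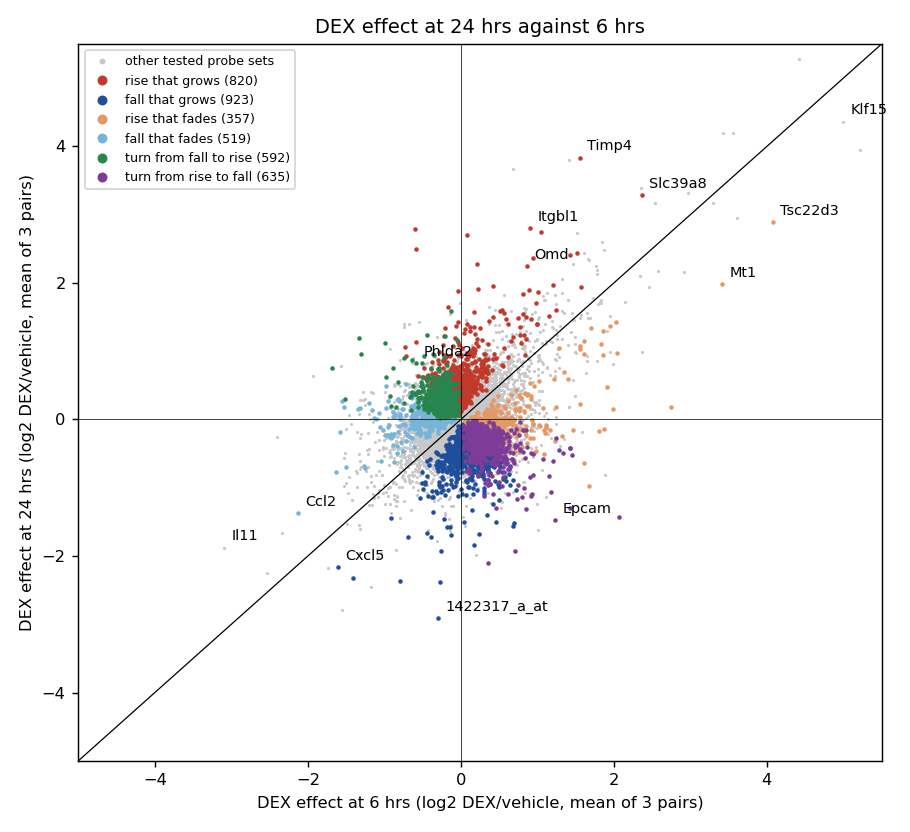
Mean DEX effect of the 3 pairs at 24 hrs (vertical axis) against that of the 3 pairs at 6 hrs (horizontal axis), both log2 of DEX over vehicle, for the probe sets tested. Colours mark the non-overlap classes with their counts, the diagonal marks equal effects, and 1 probe set lies outside the axes. Itgbl1, Omd and Timp4 lie above the diagonal among the rises, Mt1 and Tsc22d3 below it, and the probe set 1422317_a_at far below it.

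The single call was the probe set 1422317_a_at, which has no gene symbol in the annotation table used here. Its intensities for replicates 1, 2 and 4 were 2311, 2079 and 1397 in vehicle and 2016, 1686 and 1053 with DEX at 6 hrs. At 24 hrs they were 1009, 612 and 597 in vehicle and 136, 77.3 and 81.7 with DEX. The groups with and without DEX overlapped at 6 hrs and were far apart at 24 hrs. The pair effects were -0.20, -0.30 and -0.41 at 6 hrs and -2.89, -2.99 and -2.87 at 24 hrs, and the late minus early effect was -2.61 ± 0.15 (SE, adjusted p = 0.00555 with limma, 6 pairs). The call was lost without replicate 1 or 2 at 6 hrs and without replicate 2 or 4 at 24 hrs, with adjusted p from 0.0613 to 0.0779 and a difference from -2.63 to -2.56. It was also lost with hybridization day as a block (limma adjusted p = 0.0854), without the pairs of replicates 1 and 2 at 6 hrs (0.0821) and with no filter (0.337). A further unnamed probe set, 1425145_at, had pair effects of -0.72, -0.84 and -0.82 at 6 hrs and -2.53, -2.50 and -2.06 at 24 hrs, with an adjusted p of 0.153.

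Among rises that grow, 10 genes were named by the gap between late and early pairs. Omd (osteomodulin, a small leucine-rich proteoglycan of mineralized matrix) had intensities of 164, 164 and 182 in vehicle and 271, 276 and 394 with DEX at 6 hrs. At 24 hrs the vehicle arrays read 232, 279 and 272 and the DEX arrays 1185, 1361 and 1157. All DEX arrays were above all vehicle arrays at both times and the late DEX arrays were above every other array. Its DEX effect was 0.86 ± 0.22 (SD, n = 3 pairs) at 6 hrs and 2.24 ± 0.14 at 24 hrs, or 1.82-fold and 4.73-fold, and the late minus early effect was 1.38 ± 0.18 (SE, limma adjusted p = 0.153). Itgbl1, whose secreted product carries repeats like those of integrin beta chains, had 58.6, 77.7 and 22.5 in vehicle and 103, 109 and 60.5 with DEX at 6 hrs, where the groups overlapped. At 24 hrs it had 39.5, 42.6 and 69.6 in vehicle and 328, 294 and 416 with DEX, where they were far apart. Its effects were 0.91 ± 0.48 and 2.81 ± 0.24, with a late minus early effect of 1.90 ± 0.27 (SE, limma adjusted p = 0.153). Timp4, which blocks matrix metalloproteinases, had pair effects of 1.03, 1.78 and 1.84 at 6 hrs and 3.94, 2.76 and 4.80 at 24 hrs on dim vehicle arrays (10.5, 18.3 and 8.72 at 24 hrs). A second Timp4 probe set had mean effects of 0.83 and 1.64 and its late and early pairs overlapped, so the 2 probe sets differ in this respect.

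Some others of this class had early effects near 0. Cybrd1, an iron-reducing membrane enzyme, had 121, 123 and 97.2 in vehicle and 121, 125 and 90.0 with DEX at 6 hrs, and 94.4, 134 and 104 in vehicle and 206, 306 and 219 with DEX at 24 hrs. The groups overlapped early and were separate late, with pair effects of -0.0066, 0.024 and -0.11 early and 1.12, 1.19 and 1.07 late, and a second Cybrd1 probe set was in the same class. Aspn (asporin, a small proteoglycan that binds TGF-beta) had pair effects of -0.02, -0.17 and 0.30 early and 1.02, 1.68 and 1.08 late, and its second probe set was also in the same class. Haptoglobin (Hp), an acute phase protein, differed in another way. Its intensities were 189.6, 279 and 53.5 in vehicle and 194, 269.7 and 50.6 with DEX at 6 hrs, and 47.7, 70.2 and 60.9 in vehicle and 112, 156 and 231 with DEX at 24 hrs. The late DEX arrays were within the range of the early ones, and the late vehicle arrays were low against replicates 1 and 2 at 6 hrs. In replicate 4 it was the DEX level that differed, with 50.6 early and 231 late, beside 53.5 and 60.9 in vehicle. Ptgis, the prostacyclin synthase, had DEX arrays above all vehicle arrays at both times, with pair effects of 0.99, 0.97 and 1.06 early and 1.80, 1.93 and 1.89 late and an average over both times of 1.44 ± 0.072 (SE, limma adjusted p = 0.00013). Serinc5, a membrane protein, had 0.12, 0.49 and 0.49 early and 1.29, 1.44 and 1.58 late. Plb1 and Rassf4 completed the 10 genes, with late minus early effects of 1.42 and 1.53, and a second Plb1 probe set had -0.18.

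Growing rises among list members included the following. Cryab, a small heat shock protein, had pair effects of 1.45, 1.43 and 1.38 at 6 hrs and 2.54, 2.02 and 2.65 at 24 hrs and an average of 1.91 ± 0.10 (SE, limma adjusted p = 0.000171). Its relative Hspb1 had 0.79, 0.62 and 0.89 early and 1.29, 0.89 and 1.86 late, so its late and early pairs were barely apart. A second Hspb1 probe set was in the same class with a gap of 0.53. Of 21 heat shock proteins measured, these were the 2 above late without overlap and 0 were below, and the list median was -0.033. After quantile normalization 1 was above and 1 below. Slc39a8, a zinc and manganese importer, had 2.20, 2.42 and 2.49 early and 2.95, 3.05 and 3.85 late and was among the 10 largest rises over both times. A second Slc39a8 probe set had mean effects of 2.36 and 3.39 with overlapping pairs. Of 20 cell cycle brakes and D cyclins, 3 were above and 3 below. Cdkn1c, above late, encodes the cyclin-dependent kinase inhibitor p57. Its intensities were 2231, 2003 and 2262 in vehicle and 2630.4, 2712 and 2736 with DEX at 6 hrs, and 1757, 2473 and 2427 in vehicle and 3608, 4469.6 and 4734 with DEX at 24 hrs. DEX arrays were above vehicle arrays at both times, and the effect was 0.32 ± 0.11 early and 0.95 ± 0.093 late (SD, n = 3 pairs), with an average of 0.63 ± 0.076 (SE, limma adjusted p = 0.00633). Postn, a matrix protein of perichondrium and periosteum, had 0.51, 0.52 and 0.84 early and 1.47, 1.23 and 1.48 late. Edn1 (endothelin) had 0.81, 1.42 and 0.91 early and 3.18, 2.04 and 3.00 late on dim late vehicle arrays of 8.67, 5.74 and 7.33.

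**Figure D2:**
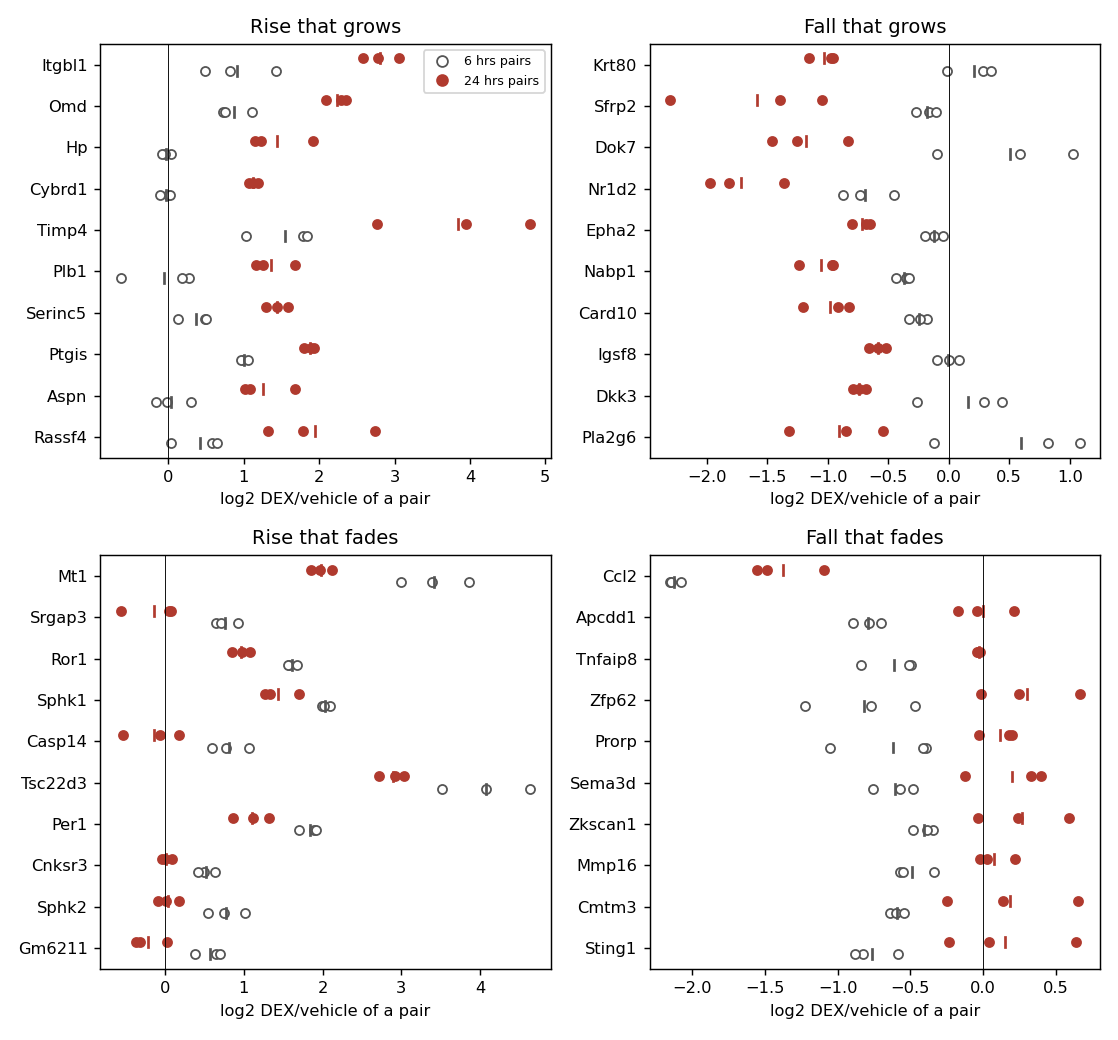
DEX effect of each pair (horizontal axes, log2 of DEX over vehicle) for the 10 genes per class with the widest gap between late and early pairs. Open circles are the 6 hrs pairs, filled circles the 24 hrs pairs and short lines their means, and within each gene the filled and open circles do not overlap, as the class requires.

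Among falls that grow, a group of secreted Wnt pathway modulators stood beside signalling and clock genes. Sfrp2, a secreted Wnt antagonist, had intensities of 96.6, 141 and 424 in vehicle and 86.5, 117 and 394 with DEX at 6 hrs. At 24 hrs it had 399, 171 and 1322 in vehicle and 193, 64.8 and 268 with DEX. The levels of replicates differed widely and the groups overlapped at both times, while every pair was below 0, with effects of -0.16, -0.27 and -0.11 early and -1.05, -1.40 and -2.30 late. Its average effect was -0.88 ± 0.15 (SE, limma adjusted p = 0.0275). Dkk3, of the Dickkopf family, had 0.29, 0.44 and -0.26 early and -0.74, -0.68 and -0.79 late, and Sfrp1 had 0.14, -0.28 and -0.26 early and -0.81, -0.68 and -1.17 late. A second Dkk3 probe set had a late minus early effect of -0.20 with overlapping pairs. Of other Sfrp1 probe sets, 1 with -1.08 was in the same class, and those with -0.34 and 0.29 had overlapping pairs. Vehicle means of these 3 genes were higher at 24 hrs than at 6 hrs (630.3 against 220.5 for Sfrp2, 455 against 150.0 for Dkk3 and 312 against 129 for Sfrp1), and whether time or hybridization day sets this cannot be told apart. Wnt5a, a non-canonical ligand, had 0.064, -0.078 and 0.11 early and -0.24, -0.65 and -0.66 late. Of the 16 Wnt ligands and antagonists measured, 5 were below without overlap (Wnt5a, Sfrp1, Sfrp2, Dkk3 and the effector Lef1) and 0 were above. The median late minus early effect of the list was -0.33, against -0.016 over all genes.

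Krt80, an epithelial keratin, had intensities of 128, 118 and 117 in vehicle and 126, 143 and 149 with DEX at 6 hrs, and 259.6, 176 and 186 in vehicle and 134, 79.2 and 94.5 with DEX at 24 hrs. Vehicle and DEX arrays overlapped early and were separate late, and the late minus early effect was -1.23 ± 0.17 (SE, limma adjusted p = 0.153). Nr1d2 encodes a heme-binding nuclear receptor that represses clock genes. It had 347, 279 and 146 in vehicle and 254, 168 and 79.4 with DEX at 6 hrs and 261, 269 and 288 in vehicle and 102, 68.8 and 81.7 with DEX at 24 hrs, with all DEX arrays below all vehicle arrays only late. Its average effect was -1.20 ± 0.11 (SE, limma adjusted p = 0.00167). Mmp3 (stromelysin), a matrix metalloproteinase, had -0.018, -0.32 and -0.26 early and -1.18, -0.70 and -0.97 late, with vehicle means of 362 at 6 hrs and 86.4 at 24 hrs. Cxcl5, a neutrophil chemokine, fell at both times, with -1.52, -1.49 and -1.82 early and -2.09, -2.21 and -2.20 late and an average of -1.89 ± 0.081 (SE, limma adjusted p = 0.00013). Gjb2, a gap junction protein, had -1.56, -0.90 and -1.77 early and -2.42, -2.65 and -1.88 late. Epha2, Nabp1 and Card10 had negative early and late means. Other Nabp1 probe sets had late minus early effects of -0.20, -0.064 and 0.029 with overlapping pairs. Igsf8 had -0.66, -0.58 and -0.52 late and an early mean of -0.0033. Dok7 and Pla2g6 had positive early means, with -0.10, 0.59 and 1.03 early and -0.83, -1.46 and -1.25 late for Dok7 and -0.12, 1.08 and 0.82 early and -1.32, -0.54 and -0.85 late for Pla2g6, and a second Pla2g6 probe set had a late minus early effect of 0.36.

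Rises that fade included 3 of the 33 established glucocorticoid targets measured (Mt1, Tsc22d3 and Per1), beside 182 of all 11053 genes in this class. The same 3 were the targets below late without overlap, a share of 9.09% beside the 9.64% of all genes that were below late in any class. Metallothionein Mt1, a zinc-binding protein, had intensities of 147, 223 and 329.7 in vehicle and 1542, 1778 and 4790.2 with DEX at 6 hrs. At 24 hrs it had 419.9, 583 and 438 in vehicle and 1641, 2109.8 and 1906 with DEX. DEX and vehicle arrays were far apart at both times, the late vehicle arrays were above the early ones, and the late DEX arrays were within the early DEX range. The effect was 3.42 ± 0.43 early and 1.98 ± 0.13 late (SD, n = 3 pairs), or 10.7-fold and 3.95-fold, with a late minus early effect of -1.44 ± 0.24 (SE, limma adjusted p = 0.228). Tsc22d3, also known as GILZ, had 82.3, 53.1 and 89.0 in vehicle and 945, 897 and 2219 with DEX at 6 hrs and 209, 218 and 280.1 in vehicle and 1581, 1784 and 1839 with DEX at 24 hrs. Here too the late vehicle arrays were above the early ones, and the late DEX arrays were within the early DEX range. Its effects were 4.08 ± 0.56 and 2.89 ± 0.16, but a second Tsc22d3 probe set had means of 3.30 and 3.17 with overlapping pairs. Per1, a clock gene with an early response to glucocorticoids, had pair effects of 1.71, 1.89 and 1.92 early and 1.32, 0.86 and 1.12 late, with vehicle means of 97.2 at 6 hrs and 142 at 24 hrs.

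A glucocorticoid response element is an inverted repeat of 1 short site, and each copy is contacted by 1 receptor of a dimer. The letters GNACANNNTGTNC, searched on both strands, were present in 0.475% of 32851 RefSeq promoters of 300 bases (GRCm38.p6, 250 bases before to 50 after the start), and 106 of the 137 genes chosen for naming had a promoter in that table. A match was found in 3 of them, Mt1, Epcam and Jund. The promoters of Mt1 (chr8:94178839-94179138, plus strand), a rise that fades, and Epcam (chr17:87635729-87636028, plus strand), which turned from rise to fall, are shown because these genes had the widest gaps among the fading rises and the turning genes, and the match is in capitals. It began 94 bases before the start in Mt1 and 69 bases before it in Epcam. A match describes the letters only and shows no binding.
Mt1: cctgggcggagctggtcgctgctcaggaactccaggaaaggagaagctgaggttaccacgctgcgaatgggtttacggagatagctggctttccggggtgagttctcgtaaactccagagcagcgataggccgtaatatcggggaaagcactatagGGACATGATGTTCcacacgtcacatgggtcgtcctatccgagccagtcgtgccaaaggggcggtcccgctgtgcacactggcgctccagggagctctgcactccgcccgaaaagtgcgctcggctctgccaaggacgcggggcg
Epcam: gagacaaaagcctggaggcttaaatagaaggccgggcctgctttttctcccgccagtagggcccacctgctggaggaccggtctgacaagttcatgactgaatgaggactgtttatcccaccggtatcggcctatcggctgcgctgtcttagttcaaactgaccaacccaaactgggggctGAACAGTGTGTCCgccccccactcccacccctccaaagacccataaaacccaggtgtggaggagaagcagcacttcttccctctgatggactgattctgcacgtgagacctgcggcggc

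Other fading rises were in signalling genes. Sphk1, the kinase that makes sphingosine-1-phosphate, had intensities of 203, 208 and 130.3 in vehicle and 868, 828 and 525 with DEX at 6 hrs, and 107, 124 and 80.8 in vehicle and 258, 313 and 262 with DEX at 24 hrs. Both groups were lower late and remained separate, with effects of 2.03 ± 0.053 and 1.43 ± 0.23, and a second Sphk1 probe set was in the same class with means of 2.74 and 0.19. Ror1, a receptor for Wnt5a, had 1.58, 1.68 and 1.57 early and 0.97, 1.08 and 0.85 late. Other Ror1 probe sets had late minus early effects of -0.055 and -0.22 with overlapping pairs. Srgap3, Casp14, Cnksr3, Sphk2 and Gm6211 had late pairs on both sides of 0. For Cnksr3, a scaffold protein of the MAP kinase pathway, the pairs were 0.64, 0.49 and 0.42 early and -0.042, 0.088 and -0.0063 late. For Sphk2 they were 1.01, 0.75 and 0.55 early and 0.18, 0.0085 and -0.094 late, and its second probe set had a late minus early effect of 0.25, of opposite sign. Of the 33 established glucocorticoid targets, 20 rose over both times and 1 fell, beside 235 rises and 162 falls among all 11053 genes. Without overlap, 1 of them was above late (Dusp1, a MAP kinase phosphatase, with 0.27, 0.49 and 0.32 early and 0.58, 0.78 and 0.68 late). The median effect of the list was 0.87 at 6 hrs and 0.74 at 24 hrs. Of 19 clock genes, 5 were below without overlap (Per1, Nr1d2, Tef, Ciart and Csnk1d) and 1 was above (Clock), with a median late minus early effect of -0.27. Tef, a clock output factor, had pair effects of 1.40, 0.42 and 1.23 early and 0.18, -0.18 and -0.22 late, and Ciart, a repressor of the clock, had -0.023, -0.20 and 0.71 early and -0.89, -0.83 and -1.58 late.

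The falls that fade named here include a chemokine, a cytokine and immediate early genes. Ccl2, the monocyte chemoattractant, had intensities of 287, 327 and 231 in vehicle and 64.6, 77.5 and 52.3 with DEX at 6 hrs. At 24 hrs it had 317, 163 and 289.7 in vehicle and 113, 55.5 and 136 with DEX. DEX arrays were below vehicle arrays at both times, 4.36-fold early and 2.6-fold late, and the late minus early effect was 0.75 ± 0.18 (SE, limma adjusted p = 0.28). Over both times Ccl2 fell, with an average of -1.75 ± 0.088 (SE, limma adjusted p = 0.00013). Lif, an interleukin 6 family cytokine, had -1.45, -1.30 and -1.05 early and -0.98, -0.81 and -0.27 late and an average of -0.98. Among 14 chemokines measured, Ccl2 was above late without overlap and Cxcl5 and Cxcl14 were below, and the median late minus early effect was -0.0014. Among 14 cytokines, Lif and Il16 were above and Ctf1 below, and Il16 was a rise over both times. Il6, an inflammatory cytokine, was dim and its early and late pairs overlapped, with pair effects of -3.07, -2.14 and -2.38 early and -2.13, -2.41 and -2.22 late.

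Jun, a subunit of AP-1, had intensities of 821, 613 and 952 in vehicle and 403, 284 and 539 with DEX at 6 hrs, and 943, 645 and 705 in vehicle and 609, 623 and 709.5 with DEX at 24 hrs. DEX arrays were below all vehicle arrays early, and the groups overlapped late. The effect was -0.99 ± 0.15 early and -0.22 ± 0.35 late, whereas a second Jun probe set had -0.55 and -0.64 with overlapping pairs. Atf3, a stress-induced AP-1 partner, had -0.72, -1.14 and -1.61 early and 1.15, -0.50 and -0.24 late, with the late pairs on both sides of 0. Ier3, an early response gene that acts on survival, had -1.27, -0.96 and -1.51 early and -0.79, -0.90 and -0.45 late, and Klf10, an early TGF-beta target, had -0.44, -0.45 and -0.72 early and -0.33, -0.20 and 0.34 late. Of the 21 immediate early and AP-1 genes measured, 6 were above late without overlap (Fos, Jun, Atf3, Ier2, Ier3 and Klf10) and 1 was below (Jund), and the median effect was -0.48 at 6 hrs and -0.22 at 24 hrs. Of this list 7 fell and 1 rose over both times, beside 162 and 235 of 11053 genes. Most other genes of the class had late pairs near 0 or on both sides of it. Tnfaip8, a regulator of cell survival, had -0.49, -0.51 and -0.84 early and -0.041, -0.018 and -0.034 late, and Apcdd1, a Wnt inhibitor at the membrane, had -0.78, -0.70 and -0.89 early and -0.044, 0.21 and -0.17 late. Zfp62, Prorp, Sema3d, Zkscan1, Mmp16, Cmtm3 and Sting1 had late minus early effects from 0.56 for Mmp16 to 1.12 for Zfp62, and a second Zkscan1 probe set had -0.14.

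**Figure D3:**
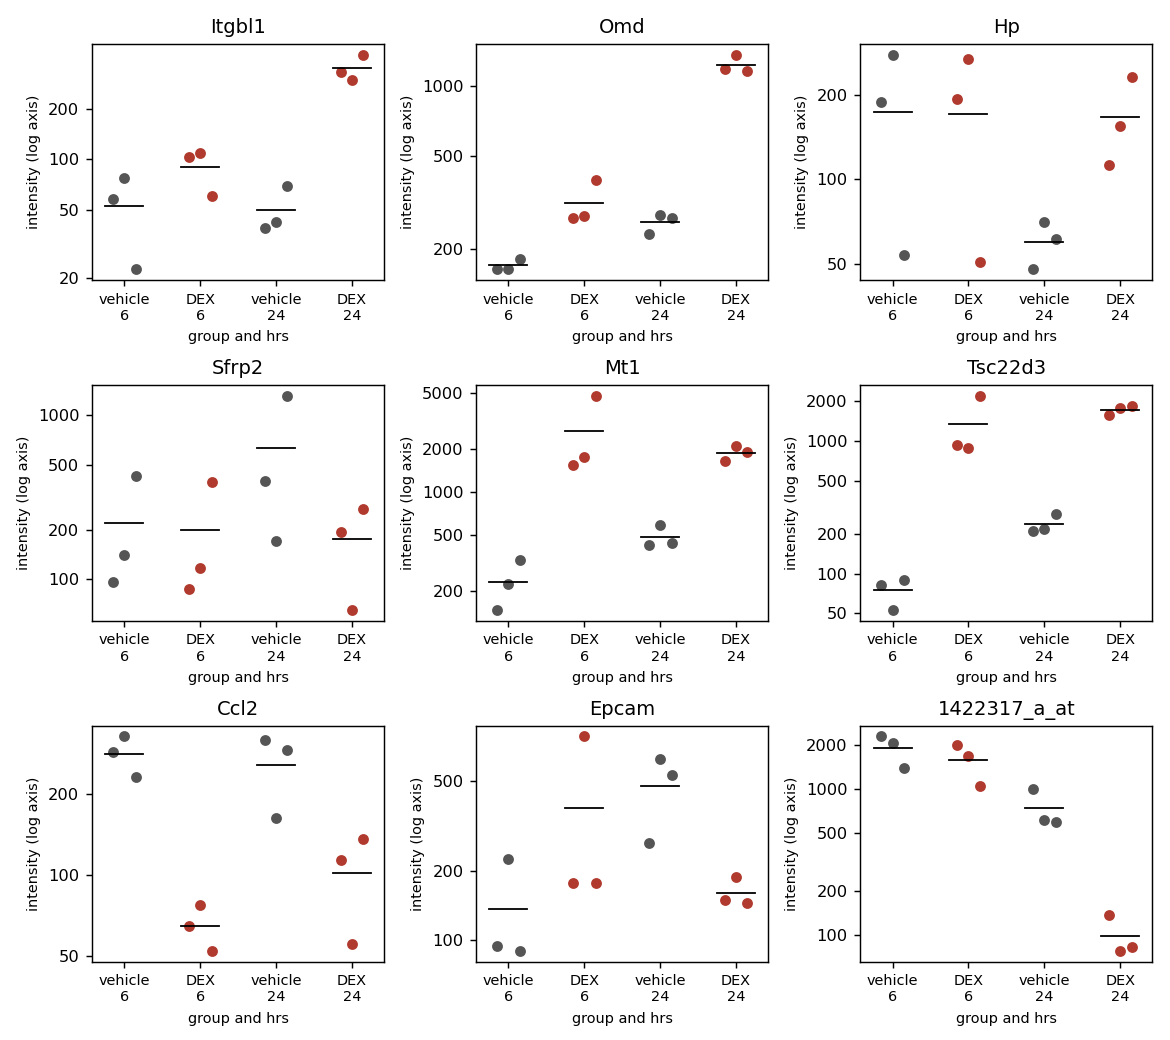
Intensity on each array (vertical axes, log scale) of 8 genes and the unnamed probe set 1422317_a_at in the 4 groups, with grey points for vehicle, red points for DEX and lines for the mean of 3 arrays. Late DEX arrays of Omd and Itgbl1 stand above every other array, late vehicle arrays of Mt1 and Tsc22d3 stand above the early ones, and the late vehicle arrays of Hp stand below 2 of the 3 early ones.

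The 10 turning genes with the widest gaps included 4 that went from rise to fall. The Epcam probe set (epithelial cell adhesion molecule), of a type whose probes can match other transcripts, had intensities of 93.4, 226 and 89.4 in vehicle and 177, 785 and 177 with DEX at 6 hrs. At 24 hrs it had 267, 622 and 530.4 in vehicle and 149.6, 189.6 and 145 with DEX. The groups overlapped early, and late all DEX arrays were below all vehicle arrays. Pair effects were 0.92, 1.79 and 0.99 early and -0.84, -1.71 and -1.88 late, a difference of -2.71 ± 0.34 (SE, limma adjusted p = 0.153). Tnfrsf4, or OX40, a costimulatory receptor of T cells, had mean effects of 1.28 ± 0.42 early and -0.44 ± 0.48 late (SD) on dim early vehicle arrays of 22.5, 43.4 and 59.5. Fmnl2, a formin that builds actin filaments, had 0.39, 0.29 and 0.38 early and -0.45, -0.46 and -0.57 late. Hs6st1, a heparan sulfate sulfotransferase, had 0.21, 0.10 and 0.023 early and -0.71, -0.87 and -0.78 late, so its early effect was small.

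The other 6 turned from fall to rise. Ptch1, the receptor of hedgehog ligands and itself a hedgehog target, had intensities of 1588, 1436 and 1204 in vehicle and 1351, 1165 and 820.2 with DEX at 6 hrs. At 24 hrs it had 909.5, 929 and 667 in vehicle and 1172, 1417 and 1268 with DEX. The groups overlapped early and were separate late, and the pair effects were -0.23, -0.30 and -0.55 early and 0.37, 0.61 and 0.93 late. Ihh, the hedgehog ligand of prehypertrophic chondrocytes, was dim and had -0.38, 0.63 and 0.12 early and 0.74, 0.83 and 1.29 late. Phlda2, an imprinted growth regulator, had 214, 179 and 190.2 in vehicle and 121, 123 and 145 with DEX at 6 hrs and 125, 109.8 and 65.3 in vehicle and 197, 229 and 109.8 with DEX at 24 hrs. Early DEX arrays were below all early vehicle arrays, and the pair effects were -0.82, -0.55 and -0.39 early and 0.66, 1.06 and 0.75 late (difference 1.41 ± 0.19, SE, limma adjusted p = 0.153). Wwp2, a ubiquitin ligase of chondrocytes, had -0.20, -0.35 and -0.41 early and 0.73, 0.42 and 0.49 late, Galnt5, a glycosyltransferase, had -0.32, -0.24 and -0.14 early and 0.69, 0.61 and 0.64 late, and Dixdc1, which acts in Wnt signalling, had -0.45, -0.34 and -0.53 early and 0.46, 0.26 and 0.98 late. The last, 4921524J17Rik, had -0.45, -0.33 and -0.35 early and 0.27, 0.41 and 0.37 late. None of the 10 passed the test of the average over both times, with adjusted p from 0.0625 to 0.968.

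**Figure D4:**
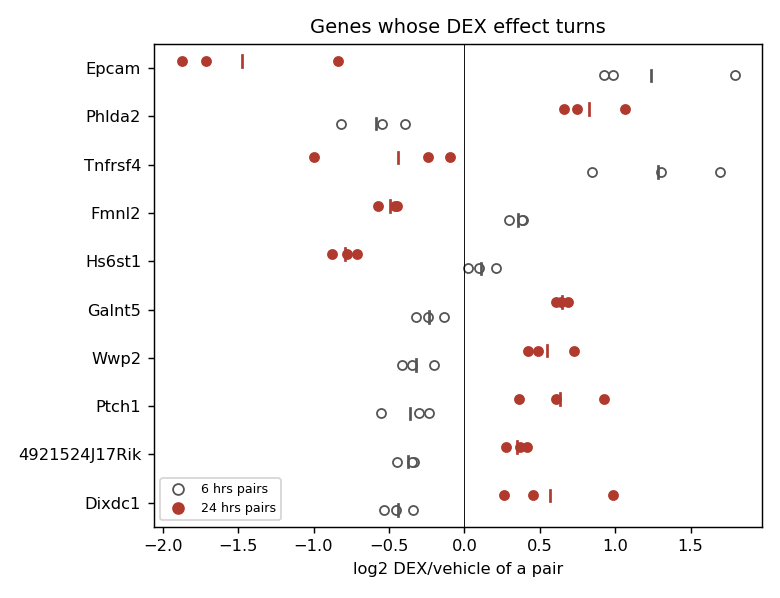
DEX effect of each pair (horizontal axis, log2 of DEX over vehicle) for the 10 turning genes with the widest gaps. Open circles are the 6 hrs pairs, filled circles the 24 hrs pairs and short lines their means, and the 2 sets lie on opposite sides of 0 for each gene.

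Genes of late cartilage differentiation had more positive late effects, with 14 of 16 higher late, beside 5287 of 11053 genes. Of 16 hypertrophic chondrocyte genes measured, 8 were above late without overlap (Col10a1, Ihh, Pth1r, Mef2c, Alpl, Panx3, Dmp1 and Omd) and 0 were below, beside 10.0% and 9.64% of all genes. The median effect of the list was 0.034 at 6 hrs and 0.43 at 24 hrs, and 2 of its genes rose and 2 fell over both times, beside 235 and 162 of 11053. Pth1r, the parathyroid hormone receptor, had intensities of 193, 202 and 527 in vehicle and 209.7, 204 and 564 with DEX at 6 hrs, and 416, 389.8 and 373 in vehicle and 626, 779 and 783 with DEX at 24 hrs. The early groups overlapped, the late ones did not, and the average effect was 0.48 ± 0.09 (SE, limma adjusted p = 0.0337). Panx3, a channel of hypertrophic cells, had -0.074, -0.11 and 0.0038 early and 0.64, 0.45 and 0.70 late. Col10a1, the hypertrophic collagen, had 0.28, 0.02 and 0.063 early and 0.43, 0.36 and 0.42 late, and Alpl, the phosphatase of mineralizing cells, had -0.064, -0.074 and 0.082 early and 0.71, 0.43 and 0.79 late. Dmp1, a protein of mineralized matrix, had the widest difference of the list (3.08). Its arrays were very dim, with group means of 10.1, 7.04 and 11.6 in all but the late DEX group (83.9). Only the late DEX group of Dmp1 reached the mean required for a probe set to be examined. The filter therefore favoured its place among the 14 and the 8, and the genes behind the background shares passed the same filter.

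Of 26 cartilage matrix genes measured, 9 were above late without overlap and 2 were below, with a median late minus early effect of 0.20. Ucma, a matrix protein of resting and early cartilage, had 0.20, 0.18 and 0.44 early and 1.18, 0.66 and 1.68 late and an average of 0.72 ± 0.13 (SE, limma adjusted p = 0.0317). Fmod (fibromodulin) had -0.072, 0.10 and -0.54 early and 0.44, 0.54 and 0.75 late with vehicle means of 778 and 526, and 6 of 6 Fmod probe sets had the same sign of the difference. Cytl1, a secreted protein of cartilage, had 0.39, 0.26 and 0.42 early and 0.74, 0.59 and 1.97 late. Comp, Col11a2, Matn4, Epyc, Snorc and Dcn were the others above, and the proteoglycans Bgn and Vcan were below. Col2a1 and Acan overlapped, with late minus early effects of -0.39 and -0.14. Of 20 cholesterol synthesis genes, 3 were above without overlap (Pmvk, Idi1 and Msmo1) and 0 below, and 17 were higher late, beside 5287 of 11053 genes, with a median of 0.25. None of these 20 passed the test over both times.

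The median effects of the proliferation and glucose use lists were lower late, each by a small amount, while their genes went both ways. Higher late were 14 of 39 and 8 of 22 genes, beside 5287 of all 11053. Of 39 replication and mitosis genes measured, 8 were below late without overlap (Mcm4, Mcm10, Ccna2, Plk1, Kif11, Kif2c, Cenpf and Foxm1) and 0 were above. The median effect was -0.081 at 6 hrs and -0.15 at 24 hrs, and none of the 39 passed the test over both times. Their median late minus early effect was -0.066, against -0.016 over all genes. Kif11, a spindle motor, had 0.079, -0.016 and 0.021 early and -0.42, -0.22 and -0.46 late, and Foxm1, a driver of mitotic genes, had 0.21, 0.34 and 0.64 early and -0.12, -0.28 and -0.40 late. Of 22 glucose use genes, 6 were below (Hk1, Gapdh, Pgk1, Pgam1, Pkm and Ldha) and 1 was above (Pdk3), with a median late minus early effect of -0.11. Ldha, which makes lactate, had -0.10, 0.39 and 0.024 early and -0.22, -0.22 and -0.25 late. The housekeeping list, which shares Gapdh and Pgk1 with it, had 3 of 11 below and 0 above and a median of -0.25, or -0.14 after quantile normalization. The median of the housekeeping genes was thus further below 0 than those of the glucose use and mitosis lists, and its part in them was not tested. The list medians given here kept their sign after quantile normalization and after centring of the pairs, with these exceptions. After quantile normalization that of the established targets (-0.064) became 0.011 and that of the heat shock proteins (-0.033) became 0.017. That of the chemokines, close to 0, became 0.010 after centring.

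**Figure D5:**
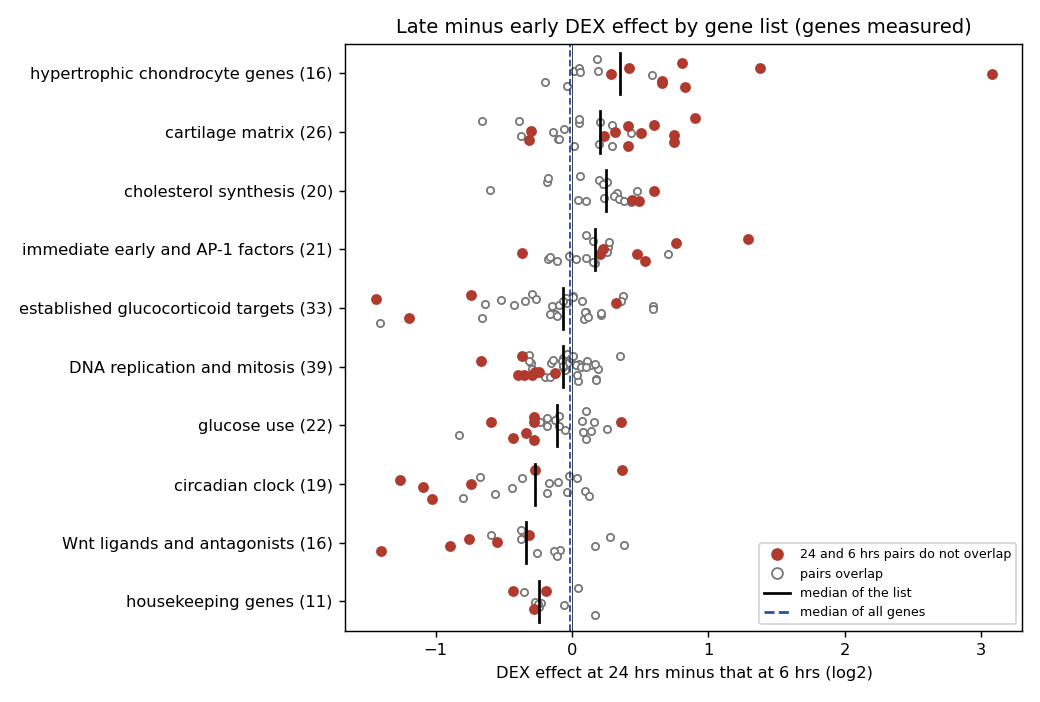
Late minus early DEX effect (horizontal axis, log2) of each measured gene in 10 gene lists, with the number of genes in brackets. Filled points are genes whose late and early pairs do not overlap, black lines list medians and the dashed line the median of all genes. Hypertrophic genes (median 0.35) and Wnt genes (-0.33) lie at the opposite ends.

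For genes changed by DEX over both times, the average effect and the late minus early effect are separate contrasts of the same 6 pairs. The average passed an adjusted p of 0.05 with limma for 668 probe sets (3.20%), of which 398 rose and 270 fell. The late mean was the larger in size for 260 of the rises (65.3%) and 172 of the falls (63.7%), against 55.7% of all probe sets. Without overlap, 107 rises grew and 40 faded, and 69 falls grew and 26 faded, while 251 rises and 175 falls overlapped. The shares and their background both moved with the early pairs used. With the early effect taken from replicate 4 alone, the late mean was larger for 213 of the same rises (53.5%) and 150 of the same falls (55.6%), against 37.1% of all probe sets, where a single pair varies more than a mean. With those pairs left out of the fit too, 55 of 177 rises (31.1%) and 18 of 61 falls (29.5%) were larger late, below the 37.1% of all probe sets, and in that fit the average and the difference are no longer separate contrasts.

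Several of the strongest responses overlapped between the times. Klf15, a metabolic transcription factor, had intensities of 3.37, 4.33 and 7.99 in vehicle and 135, 138 and 204 with DEX at 6 hrs, and 6.79, 8.23 and 24.7 in vehicle and 169.7, 276 and 257 with DEX at 24 hrs. DEX arrays were far above vehicle arrays at both times, with pair effects of 5.33, 5.00 and 4.67 early and 4.64, 5.07 and 3.38 late, which rest on very dim vehicle arrays. The late minus early effect of Klf15 was -0.64, and 0.55 with intensities under 50 set to 50. Zbtb16, a zinc finger repressor, had 3.87, 2.89 and 4.07 early and 3.22, 2.77 and 2.88 late, and a dimmer Zbtb16 probe set had a late minus early effect of 2.52, of opposite sign. Thbd (thrombomodulin), an anticoagulant receptor, fell over both times, with -1.39, -1.46 and -1.61 early and -1.51, -1.54 and -1.56 late and a late minus early effect of -0.052 ± 0.15 (SE). Il11, Ptgs2, Cxcl3, Esm1 and Tnfsf11 also fell over both times with overlapping pairs, as Sult1a1, Slc25a48, Ctxn3 and Foxred2 rose. The receptor gene Nr3c1 had -0.38, -0.38 and -0.66 early and -0.55, -0.30 and -0.23 late, an average of -0.42 ± 0.085 (SE, limma adjusted p = 0.0485). A second Nr3c1 probe set was a fall that fades, with -0.74, -0.52 and -0.64 early and -0.39, -0.34 and -0.096 late. Other Nr3c1 probe sets had late minus early effects of 0.52 and -0.47 with overlapping pairs. Itgb1, an integrin subunit, had 0.18, 0.078 and 0.29 early and 0.095, -0.27 and 0.0078 late.

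A late minus early effect can come from the DEX or from the vehicle arrays, and both sides were compared. Over the 466 genes with a rise that grows, DEX levels differed more between the times than vehicle levels in 261 and less in 205, with median log2 shifts of 0.32 with DEX and -0.11 in vehicle. Over the 182 genes with a rise that fades, the vehicle levels differed more in 112 (61.5%), with median shifts of -0.077 with DEX and 0.48 in vehicle. For the 334 genes that turned from rise to fall, the vehicle levels differed more in 200 (59.9%). In the remaining classes the sides were closer to even. Vehicle levels differed more in 250 of 487 falls that grow (51.3%) and 148 of 282 falls that fade (52.5%). For turns from fall to rise it was 169 of 309 (54.7%). Time and day cannot be told apart in these shifts. 

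Markers of other cells moved with some pairs. The summed intensity of the 24 muscle genes ranged from 1573 to 2314 in vehicle and 1618 to 2055 with DEX at 6 hrs, and from 1091 to 3388 and 1178 to 2253 at 24 hrs. Its pair effects were 0.041, -0.17 and -0.019 early and 0.0034, 0.11 and -0.59 late. Myod1, a defining muscle factor, had 0.12, 0.14 and 0.47 early and -0.50, -0.55 and -0.67 late. Myod1 and Myog were below late without overlap, and the troponins Tnni2 and Tnnt3 were above. The summed level of 22 macrophage genes ranged from 1413 to 2481 in vehicle and 1385 to 2102 with DEX at 6 hrs, and from 1426 to 1792 and 1289 to 1510 at 24 hrs, and its pair effects were -0.24, -0.31 and -0.029 early and -0.17, -0.15 and -0.36 late. The summed level of 15 endothelial genes ranged from 569 to 941 in vehicle and 519 to 1001 with DEX at 6 hrs, and from 838 to 1084 and 1112 to 1229 at 24 hrs. Its pair effects of -0.13, 0.080 and 0.089 early and 0.22, 0.11 and 0.55 late did not overlap, and 5 of these genes were tested. The summed level of 20 tendon and perichondrial fibroblast genes was higher than these. It ranged from 18401 to 31685 in vehicle and 20191.5 to 32417 with DEX at 6 hrs, and from 24460 to 29414 and 21348 to 31305 at 24 hrs. Its pair effects were 0.028, 0.19 and 0.033 early and -0.048, -0.20 and 0.090 late. Those of 10 osteoclast genes were 0.30, -0.12 and -0.14 early and -0.20, -0.30 and 0.086 late. The part of these cells in the results above was not tested.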

How the data were processed

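The 12 arrays were Affymetrix MOE 430 2.0 chips hybridized with total RNA, and the study describes 3 independent experiments; which arrays share an isolation beyond the replicate number of the labels is not given in the sources used here. The authors preprocessed them with the GC-RMA algorithm in GeneSpring GX (no version stated) and deposited 1 linear intensity per probe set and array, with medians from 25.7 to 39.1. Depth is not defined for arrays, and their number limits the precision. Intensities were used as deposited, taken to log2, and DEX minus vehicle was formed within pairs, with no pseudocount. Arrays were paired by the replicate number, and both arrays of a pair shared a hybridization day. Deviations from the group means correlated within pairs at 0.681, 0.632 and 0.863 at 6 hrs and 0.158, 0.301 and 0.220 at 24 hrs. With vehicle arrays of other numbers the highest were 0.506, 0.571 and -0.684 at 6 hrs and 0.018, -0.143 and 0.0082 at 24 hrs. Replicates 1 and 2 at 6 hrs shared 1 day, as did replicates 1 and 4 at 24 hrs. The part of the day in these correlations was not tested. limma 3.58.1 (R 4.3.3) fitted the 6 pair differences, which left 4 residual degrees of freedom, with Benjamini-Hochberg adjustment over all 20897 probe sets, and was tested on simulated data.

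The annotation table gave 34958 probe sets 1 gene symbol, 932 several and 9211 none, and a gene was represented by its brightest tested probe set. Named were up to 10 genes per class with the widest gap on log2(intensity + 16) and a group mean of at least 100, up to 3 non-overlapping members per list, the 10 largest rises and falls over both times and the genes the study assayed by qRT-PCR. Other list members are the remaining non-overlapping ones or examples chosen after their values were seen. The members and the 33 gene lists were chosen with earlier results of these data known. Alternatives were 16 added before log2, a floor of 50, other filters, quantile normalization, centring, each pair left out, both pairs of the third hybridization day left out, no replicate block, hybridization day as a block and the second brightest probe set. The early effect of replicate 4 alone was an alternative chosen after seeing the data. Promoters were taken from RefSeq (GRCm38.p6), and figures were drawn with matplotlib 3.10.9.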

Additional observations from a re-analysis of the deposited data

Results flagged for a closer look

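The probe set 1422317_a_at was the one for which the difference between the times passed the test, with a late minus early effect of -2.61 (limma adjusted p = 0.0056). The call was lost with hybridization day as a block (0.0854), without replicates 1 and 2 at 6 hrs (0.0821) and with no filter (0.337).

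In the following genes all early pairs and all late pairs lay on opposite sides of 0. For none of them did limma's test of the difference pass an adjusted p of 0.05 over all probe sets, and the opposite signs as such were not tested. From rise to fall, the late minus early effect was -2.71 for Epcam, -1.72 for Tnfrsf4, -0.85 for Fmnl2 and -0.90 for Hs6st1. Among members of the gene lists that went the same way, it was -0.37 for Jund, an AP-1 subunit, -0.59 for the fibrillar collagen gene Col5a1, -0.67 for Igfbp4 and -0.77 for Htra1, which both act in the IGF axis, and -0.67 for Foxm1. It was -1.01 for the glutathione transferase Gsta4, -0.50 for the stress factor Atf5, -0.28 for Gapdh, -0.37 for the histocompatibility gene H2-D1, -0.31 for Hif1a, -0.77 and -0.54 for the integrins Itgb5 and Itga3 and -0.81 for Myod1. Second probe sets of Itgb5 and Itga3 had the opposite sign. Other H2-D1 probe sets went both ways, from -0.85 to 1.54, and 1 with 0.89 was a rise that grows. Other probe sets of Col5a1, Htra1, Gapdh and Hif1a kept the sign, but their pairs overlapped. For Igfbp4, 1 other probe set had 0.23 with overlapping pairs, and the rest kept the sign.

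From fall to rise, the late minus early effect was 1.41 for Phlda2, 0.88 for Galnt5, 0.87 for Wwp2, 1.00 for Ptch1, 0.73 for 4921524J17Rik and 1.01 for Dixdc1. Among list members it was 0.82 for the NF-kB inhibitor gene Nfkbie, 0.90 for the BMP antagonist Chrdl1, 0.44 for the BMP target Id3, 0.75 for Igfbp3, 0.56 for Rb1, 0.86 for the adipogenic receptor Pparg and 0.41 for the peptide transporter Tap1. These genes are part of the 592 and 635 turning probe sets counted among all 20897. A second Igfbp3 probe set did not turn, with mean effects of -0.54 early and -0.31 late and overlapping pairs. Other Wwp2 probe sets had late minus early effects of 0.28, -0.19 and 0.28.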

How the results depend on the processing

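Of 2245 values of 140 named genes and probe sets under the alternatives, 2197 kept direction and side of the threshold, 27 reversed, 13 newly passed and 8 no longer passed. Most of this was fixed beforehand, since leaving out pairs cannot turn the sign of a gene named for non-overlap, and 1 call was there to lose. The cause of these changes was not tested. The design has 3 pairs a time, intensities near background are uncertain, and time cannot be told apart from hybridization day. With a pair left out, non-overlap of 3 and 2 values is likelier by construction.

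The count of probe sets whose DEX effect differed between the times, 1 as reported, was 13 with a floor of 50, 9 with a mean of at least 200, 0 without a filter, 0 without the third-day pairs (replicates 1 and 2 at 6 hrs), 0 with day as a block and 0 with no replicate block, and 0 to 3 with each pair left out. With limma and no replicate block, 156 probe sets changed over both times, and the adjusted p of 1422317_a_at was 0.0821 without the third-day pairs, 0.0854 with day as a block, 0.337 without a filter and 1.00 without the block. Pairing changed no other call of the late minus early effect.

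With each pair left out, 2817 to 3550 probe sets were above late and 2669 to 3817 below, 765 to 1660 were rises that grow, 886 to 2191 falls that grow, 377 to 1097 rises that fade and 524 to 1250 falls that fade, and 832 to 1202 turned from fall to rise and 790 to 1357 from rise to fall. With each pair left out, 331 to 393 changed over both times, with 133 to 165 rises and 56 to 104 falls larger late. As shares these were 49.8% to 67.6% of the rises and 47.5% to 69.3% of the falls, both lowest without replicate 2 at 6 hrs. With no replicate block the shares were 55.4% and 48.6%. The shares over all probe sets at these settings are not given here. A mean of at least 200 left 1233 above, 1057 below, 529 rises and 495 falls that grow, 177 rises and 285 falls that fade, and 354 and 320 turns to rise and to fall. With no filter, 3730 were below, 1578 were falls that grow, 725 and 849 rises and falls that fade and 1168 turned to fall, and 73 changed over both times, with 26 rises and 11 falls larger late. Without the third-day pairs, 6339 were above, 7259 below, 3454 and 3510 were rises and falls that fade, 1934 and 2700 turned to rise and to fall, and 238 changed over both times, with 55 rises and 18 falls larger late.

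A second brightest probe set reversed the late minus early effect of Plb1 (-0.18), Pla2g6 (0.36), Sphk2 (0.25), Zkscan1 (-0.14), Jun (-0.093), Nfkb2 (-0.17), Hk1 (0.013), Itgb5 (0.14), Itga3 (1.37), Zbtb16 (2.52) and Itgb1 (0.18). A floor of 50 reversed Lpin1 (0.061), Il6 (-0.18), Esm1 (1.38, limma adjusted p = 0.0283), Tnfsf11 (0.23), Klf15 (0.55) and Foxred2 (0.11), and 16 added reversed Esm1 (0.24) and Klf15 (0.092). Leaving out the third-day pairs reversed Ptgs2 (0.61), Thbd (0.073), Tnfsf11 (0.061), Sult1a1 (-1.22) and Slc25a48 (-1.29), 5 of the 15 named genes with overlapping pairs. With each pair left out, Sult1a1 ranged from -0.035 to 1.57 and Slc25a48 from -0.77 to 1.78, lowest without replicate 2 at 6 hrs, and Ctxn3 from -0.31 to 0.74, lowest without replicate 1 at 24 hrs.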
